A study of Mus musculus with 8 samples.

Results

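The mouse Akr1c genes lie side by side on chromosome 13 and encode aldo-keto reductases, soluble enzymes that use NADPH or NADH to turn ketones and aldehydes into alcohols and back. All 8 genes of the cluster (Akr1c6, Akr1c12, Akr1c13, Akr1c14, Akr1c18, Akr1c19, Akr1c20 and Akr1c21) were read as 1 group, with every probe whose RefSeq accession matched one of them. In all, 7 of the 8 had a matching probe, 1 each, out of 21154 genes named on the array. No probe was matched to Akr1c20, which was not analysed here. Of the 7, 5 passed the filter on dim probes and were tested, among 16603 genes.

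The arrays measured RNA of whole skin from female CD109+/+ and CD109-/- mice, either given DMBA or given acetone, its solvent, and sampled after 24 h. The acetone groups are called untreated, as in the sample titles. DMBA is a polycyclic aromatic hydrocarbon that starts skin tumors. There were 2 arrays in each of 4 groups, and the labels do not say whether they came from separate mice, so that p-values measure only the spread between arrays. Both genotypes were on the FVB/N background. The CD109+/+ mice were bought from a breeder and the CD109-/- mice were backcrossed, and littermate controls are not mentioned in the study's methods. The age of the mice on the arrays is not given in the labels.

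Enzymes of the Akr1c family are known for setting the level of active steroid hormones and prostaglandins inside a tissue. Akr1c18 inactivates progesterone, Akr1c14 reduces dihydrotestosterone and related steroids, Akr1c6 and Akr1c21 act on sex steroids, and Akr1c12, Akr1c13 and Akr1c19 are known mainly as enzymes for foreign alcohols and ketones. Aldo-keto reductases also oxidise the dihydrodiols formed from aromatic hydrocarbons such as DMBA, and several of them are targets of Nrf2, the transcription factor of the antioxidant response.

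The cluster runs Akr1c14, Akr1c18, Akr1c13, Akr1c19, Akr1c12, Akr1c6, Akr1c20 and Akr1c21 in the gene table, between Ucn3 and Akr1e1. The 250 bases before the start of Akr1c12, Akr1c13 and Akr1c19 are shown because Akr1c12 and Akr1c13 had nearly the same signal pattern over the arrays and Akr1c19 did not, although all lie next to one another. The sequences are RefSeq promoters of build GRCm38.p6, written 5′ to 3′ on the gene's strand, with the word CATTAG in capitals. They lie at chr13:4279400-4279649 on the minus strand (Akr1c12), chr13:4190937-4191186 on the plus strand (Akr1c13) and chr13:4233490-4233739 on the plus strand (Akr1c19).
Akr1c12: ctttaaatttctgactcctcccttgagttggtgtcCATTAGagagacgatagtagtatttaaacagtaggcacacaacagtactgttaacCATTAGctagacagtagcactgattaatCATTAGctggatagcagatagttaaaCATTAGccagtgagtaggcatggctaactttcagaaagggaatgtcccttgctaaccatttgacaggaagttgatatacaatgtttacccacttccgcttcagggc
Akr1c13: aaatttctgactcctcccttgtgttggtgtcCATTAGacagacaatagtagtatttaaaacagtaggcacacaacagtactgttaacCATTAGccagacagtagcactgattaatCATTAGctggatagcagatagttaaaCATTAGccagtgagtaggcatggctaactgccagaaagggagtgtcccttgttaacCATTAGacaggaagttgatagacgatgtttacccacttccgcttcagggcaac
Akr1c19: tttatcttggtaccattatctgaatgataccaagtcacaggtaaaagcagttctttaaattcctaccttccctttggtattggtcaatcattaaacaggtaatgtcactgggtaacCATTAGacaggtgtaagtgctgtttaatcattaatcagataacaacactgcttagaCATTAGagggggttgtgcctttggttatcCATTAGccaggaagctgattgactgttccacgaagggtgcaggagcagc

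In a global alignment, Akr1c12 and Akr1c13 shared 235 identical bases over these 250, which is 94%. Akr1c13 and Akr1c19 shared 61.6%, and the other pairs among the 7 genes shared 50.4% to 59.6%. These bases lie before the start of the gene and are not part of the transcript that a probe binds. Probe and transcript sequences were not compared. How far the probe of Akr1c12 also binds the transcript of Akr1c13, or the reverse, was therefore not tested, and their values are best read together. CATTAG was chosen after the sequences were seen. On either strand it occurred 4 times before Akr1c12, 5 times before Akr1c13 and 3 times before Akr1c19, once before Akr1c6 and Akr1c21 each, and not before Akr1c14 or Akr1c18. Over 32851 RefSeq promoters, 6.36% held it at least once and 8 promoters (0.0244%) at least 3 times. Those 8 include the promoters of Akr1c12, Akr1c13 and Akr1c19 themselves, from which the word was taken, so the shares are no independent background. The core of the antioxidant response element, TGACNNNGC, was found on neither strand in the 250 bases of any of the 7 genes with a promoter sequence. Of all promoters, 10.2% held it. The core of the xenobiotic response element, GCGTG, was likewise not found in them, and 28.2% of all promoters held it. With only 7 promoters and such shares, finding neither core does not set them apart from other promoters. Such elements can lie farther from the start, which was not searched.

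The array signal is given as the log2 of the deposited intensity minus the log2 of the 75th percentile of that array, so that 0 is the 75th percentile and 1 unit is a doubling. The 75th percentile was an intensity of 335 to 522, and 63.6% to 67.0% of spots were well above background, with no saturated spot. The labels were checked against Cd109 itself. The probe had a log2 signal of 1.103 and 1.681 on the CD109+/+ DMBA arrays and was not well above background on the CD109-/- DMBA arrays. It was at 2.31 on the array labelled CD109+/+ untreated replicate 1 and not well above background on replicate 2, whereas it was at 1.91 on the array labelled CD109-/- untreated replicate 1 and not well above background on replicate 2. Thus 2 untreated arrays carry a Cd109 signal that goes against their label. Groups below are as labelled unless said otherwise, and each result is also given without these 2 arrays or with the 2 exchanged between the untreated groups. The exchange was found from the arrays' own values, so that its p-values describe the arrays so divided and are no independent evidence.

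The skin identity of the samples held on all 8 arrays. The basal keratins Krt5 and Krt14 had log2 signals of at least 7.76 and 5.78, and the suprabasal keratins Krt1 and Krt10 of at least 4.04 and 6.28. Other markers differed between arrays. Averaged over 12 hair shaft keratins, the log2 signal was 0.80 to 5.43 on the 4 arrays without Cd109 signal and -4.44 to -4.05 on the 4 with it. That of 10 inner root sheath genes was 2.97 to 4.97 against -3.45 to -2.73. The means of basal epidermis, adipocyte, skeletal muscle, macrophage and fibroblast markers were lower on the arrays without Cd109 signal, with no overlap, at 1.90 to 3.20 against 3.39 to 4.20 for 7 macrophage markers. The part of this tissue makeup in the values below was not tested, and in whole skin fewer cells of a type and less RNA per cell cannot be told apart.

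Akr1c18 had an intensity between 2268 and 34449 and was well above background on all 8 arrays. Its log2 signal was 4.51 and 4.81 on the CD109+/+ DMBA arrays and 5.41 and 3.84 on the CD109-/- DMBA arrays. The arrays labelled CD109+/+ untreated gave 4.93 and 2.34 and those labelled CD109-/- untreated 6.20 and 2.18, in the order of replicates 1 and 2. Both low values came from untreated arrays without Cd109 signal, and the highest came from an untreated array with it. The 4 labelled groups overlapped, and the pair of CD109+/+ DMBA values lay inside the range of every other group.

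Akr1c14 was also well above background on all 8 arrays, at intensities of 206 to 2428. Its log2 signal was 2.29 and 2.22 after DMBA in CD109+/+ skin and 1.65 and -0.04 after DMBA in CD109-/- skin. The arrays labelled CD109+/+ untreated gave 1.44 and -1.34 and those labelled CD109-/- untreated 2.28 and -0.71. The lowest values were again those of the untreated arrays without Cd109 signal. After DMBA the 2 genotypes did not overlap, with CD109-/- lower.

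Akr1c13, at intensities of 370 to 2413, had log2 signals of 2.00 and 2.06 after DMBA in CD109+/+ skin and of 1.13 and 0.15 after DMBA in CD109-/- skin. Untreated skin labelled CD109+/+ gave 1.66 and 0.25, and that labelled CD109-/- gave 2.36 and 0.68. Akr1c12, at intensities of 34.9 to 291, had log2 signals of -1.001 and -1.071 after DMBA in CD109+/+ skin and of -2.07 and -3.26 in CD109-/- skin. Untreated skin labelled CD109+/+ gave -1.47 and -2.85, and that labelled CD109-/- gave -0.69 and -2.55. Both genes were lower on every array without Cd109 signal than on any array with it, whatever the label and the treatment.

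Akr1c19 was well above background on 5 of the 8 arrays, at intensities of 1.84 to 113 over all of them. It was not well above background on either CD109+/+ DMBA array, at log2 signals of -7.97 and -6.08, and was at -2.45 and -3.52 on the CD109-/- DMBA arrays. In untreated skin it was at -3.62 on the array labelled CD109+/+ replicate 1 and not well above background on replicate 2, at -7.67. Untreated skin labelled CD109-/- gave -2.05 and -5.13. Of the 5 tested members only Akr1c19 had both CD109-/- DMBA arrays above both CD109+/+ DMBA arrays. Neither Akr1c6 nor Akr1c21 was well above background on any array, at intensities of at most 10.0 and 2.46, and were not tested.

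**Figure D1:**
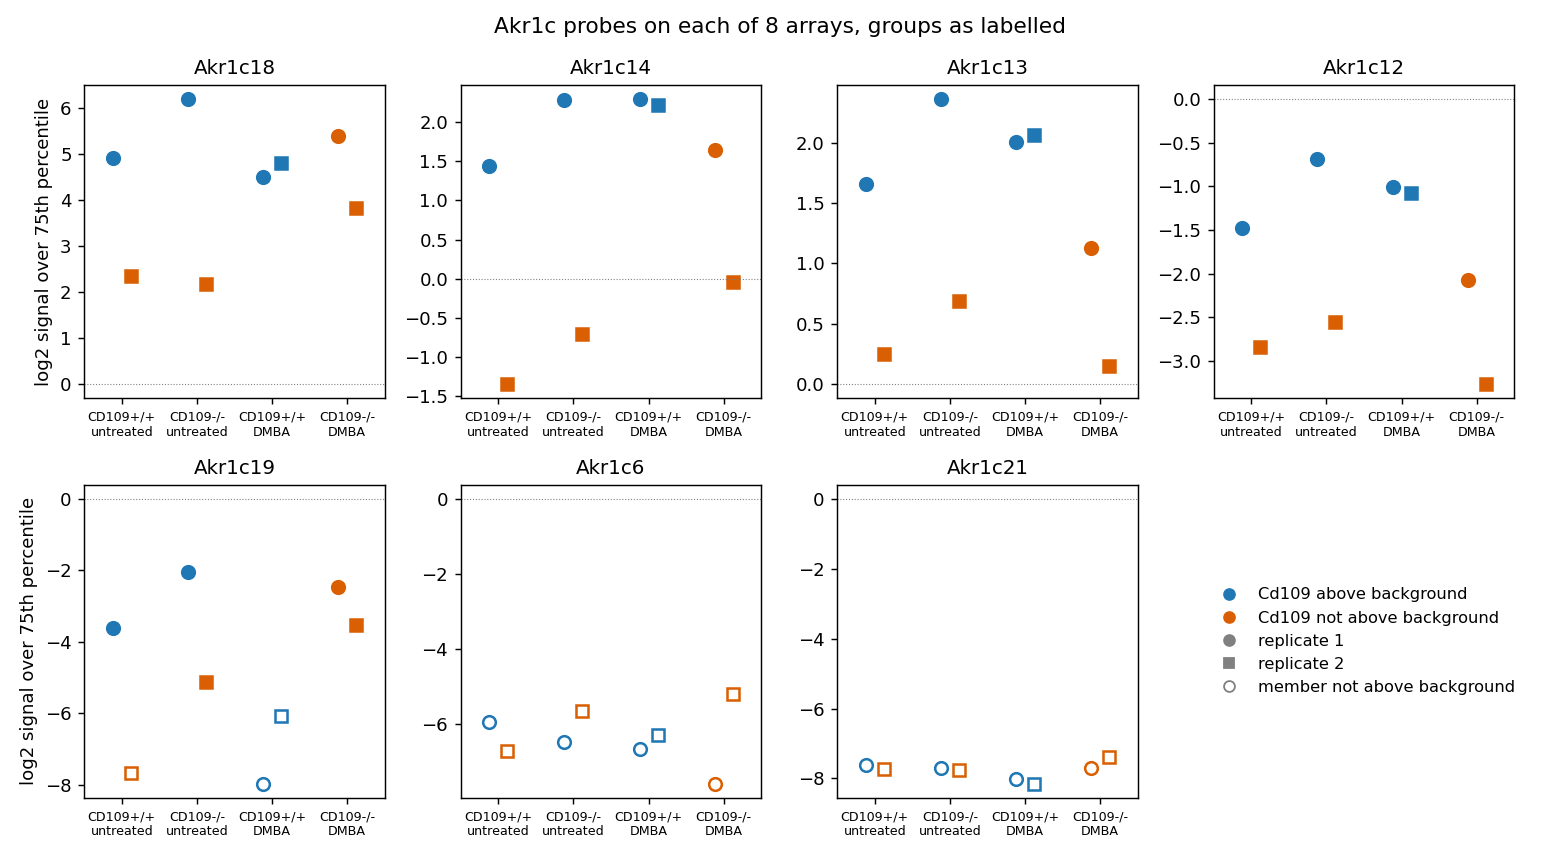
Log2 signal of the 7 Akr1c probes relative to the 75th percentile of each array, with 1 point per array, groups as labelled, colour for the Cd109 signal of the array, circles and squares for replicates 1 and 2, and no fill where the Akr1c probe was not well above background. For Akr1c12 and Akr1c13 all points without Cd109 signal lie under all points with it, and for Akr1c18 the lowest points, at 2.34 and 2.18, are the untreated arrays without Cd109 signal.

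When the arrays were divided by Cd109 signal alone, 4 against 4, only Akr1c12 and Akr1c13 of the 5 tested members did not overlap. This division follows the outcome of the Cd109 probe and not the labels, so the values are a description with no test. Akr1c12 ranged from -3.26 to -2.07 without Cd109 signal and from -1.47 to -0.69 with it, with a gap of 0.60 between the closest arrays. Akr1c13 ranged from 0.15 to 1.13 and from 1.66 to 2.36, with a gap of 0.53. Over all 36684 tested probes, 14.3% were lower without overlap on the arrays without Cd109 signal, and a further 12.8% were higher without overlap. Akr1c14 and Akr1c18 overlapped through CD109-/- DMBA replicate 1, which stood at 1.65 and 5.41, and Akr1c19 ranged over nearly the same values in both sets.

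The genes on either side of the cluster were read in the same way. Ucn3, which encodes the peptide urocortin 3, was well above background on no array. Akr1e1, an aldo-keto reductase at the other end, was at -0.12 to 0.42 without Cd109 signal and at 0.50 to 0.80 with it, without overlap. Akr1e1, outside the family name, thus had the same order of arrays as Akr1c12 and Akr1c13, with a smaller difference. This order was not particular to neighbours of the cluster. Akr1a1, Akr1b3, Akr1b10 and Akr7a5, which do not flank it, were also lower without overlap on the arrays without Cd109 signal, as were 14.3% of all tested probes. Akr1b8 and Akr1cl overlapped, and Akr1b7, well above background on only 2 arrays, was higher on the arrays without Cd109 signal.

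**Figure D2:**
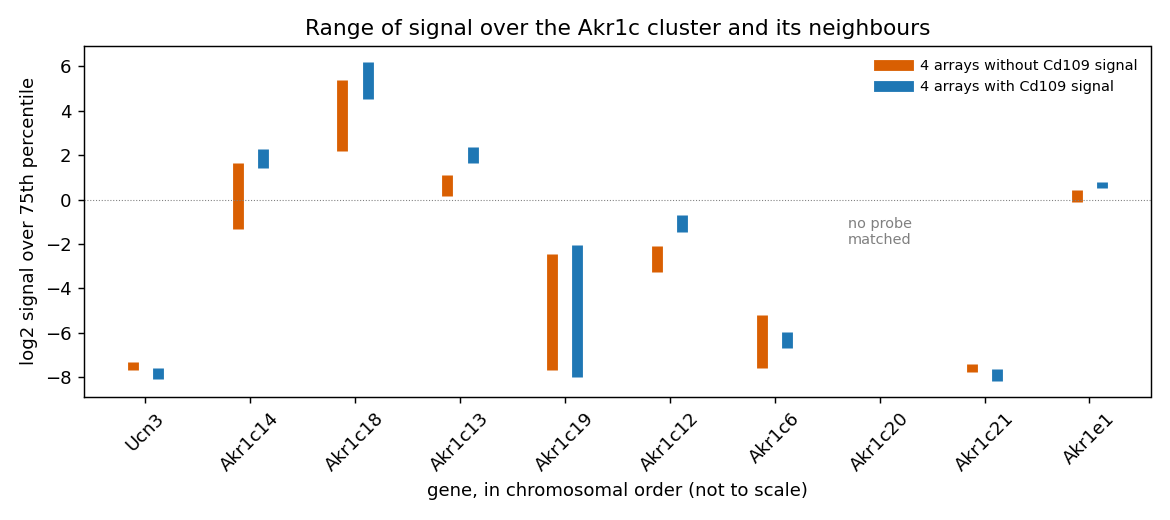
Lowest to highest log2 signal of each gene of the cluster and of the gene on either side, in chromosomal order, on the 4 arrays without and the 4 arrays with Cd109 signal. The bars are apart for Akr1c13, Akr1c12 and Akr1e1 and overlap for Akr1c14, Akr1c18 and Akr1c19, and no probe was matched to Akr1c20.

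The members varied together to different degrees. Over the 8 arrays, Pearson's r was 0.995 between Akr1c12 and Akr1c13, 0.906 between Akr1c13 and Akr1c14 and 0.898 between Akr1c14 and Akr1c18. Akr1c19 had r of 0.05 with Akr1c12, 0.11 with Akr1c13, 0.25 with Akr1c14 and 0.58 with Akr1c18. These are descriptions over 8 arrays that share their hybridization, and they carry the differences in tissue makeup given above. With the mean of the hair shaft keratins, r was -0.976 for Akr1c12, -0.975 for Akr1c13, -0.878 for Akr1c14, -0.701 for Akr1c18 and -0.02 for Akr1c19. The arrays form separate clusters on the keratin axis, which such an r reads as a slope.

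**Figure D3:**
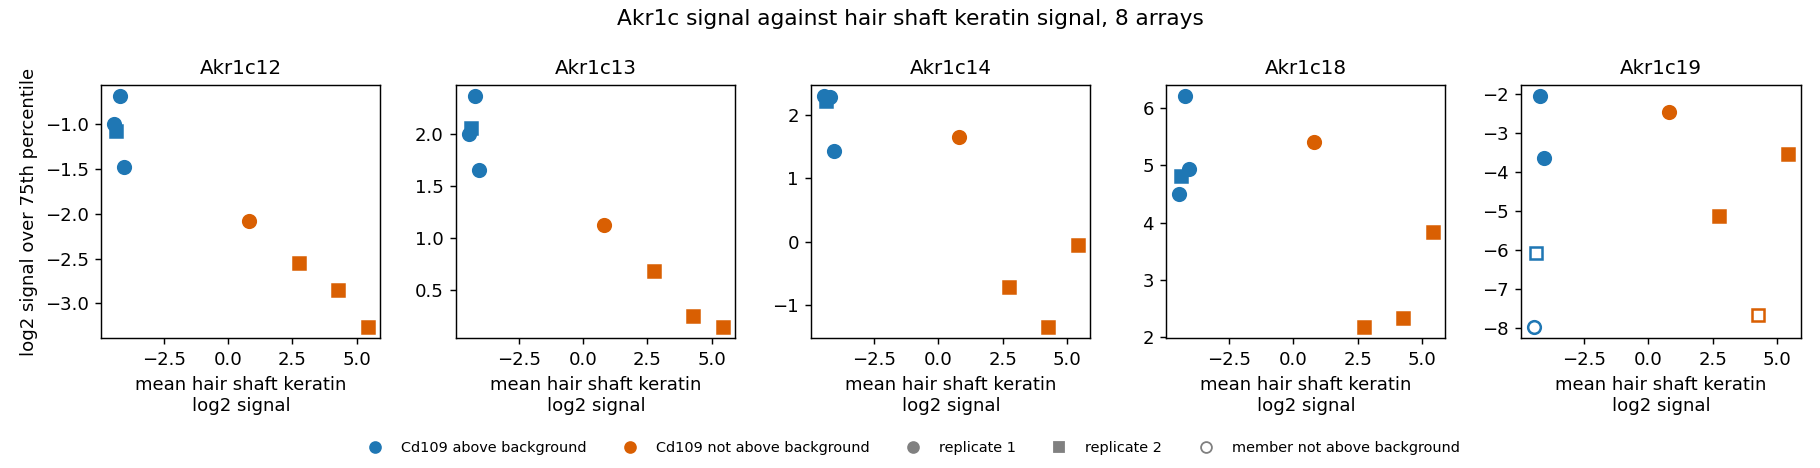
Log2 signal of the 5 tested Akr1c genes against the average of 12 hair shaft keratins (log2 signal), with 1 point per array, coloured by Cd109 signal and open where the Akr1c probe was not well above background. The 4 arrays with Cd109 signal stand between -4.44 and -4.05 on the keratin axis, the other 4 between 0.80 and 5.43, and Akr1c12 and Akr1c13 fall from left to right while Akr1c19 shows no such order.

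Among 15756 genes well above background on at least 6 arrays, those most like Akr1c12 over the 8 arrays were Acvrl1, a receptor of endothelium (r = 0.999), Lrmp (r = 0.996) and Ogn, a small proteoglycan of connective tissue (r = 0.996). Those most like Akr1c13 were Lrmp (r = 0.997), Acvrl1 (r = 0.997) and the galectin Lgals8 (r = 0.996). Both thus shared Acvrl1 and Lrmp among their nearest genes, which is no separate evidence beside their own r of 0.995. Akr1c14 was nearest to Lsmem1 (r = 0.983), the ABC transporter Abcd4 (r = 0.981) and the neuropeptide Y receptor Npy1r (r = 0.981). Akr1c18 was nearest to the ceramidase Acer2 (r = 0.967), the DNA polymerase Poln (r = 0.958) and the clock gene Per2 (r = 0.955).

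The differences between genotypes after DMBA use only arrays whose Cd109 signal matched their label. Their standard errors and p-values rest on a spread estimated over all 8 arrays. Akr1c12, Akr1c13 and Akr1c14 were lower and Akr1c19 was higher in CD109-/- than in CD109+/+ skin in 4 of 4 array pairs, but none of the 5 tested members passed at a Benjamini-Hochberg adjusted p of 0.05 over all probes (limma), beside 0.0791% of all tested probes called. As labelled, Akr1c19 passed the filter on dim probes only through the CD109-/- groups, where it was high, so its p-value is no independent support. It had the smallest unadjusted p (0.048), the only 1 of the 5 under 0.05. On the deposited intensity it was at least 8.34-fold higher in CD109-/- skin, since the CD109+/+ arrays gave only a bound, with a fitted log2 difference of 4.04 (SE 1.62, adjusted p = 0.188). With normexp background correction, which adds a constant to every signal and so compresses dim ones, the log2 difference was 1.01 (SE 0.43, adjusted p = 0.14), which is under that bound, so that the size of this difference depends on the background correction. Its means were -2.99 ± 0.76 and -7.03 ± 1.33 (SD, n = 2 arrays each). Akr1c12 had means of -2.67 ± 0.84 in CD109-/- and -1.04 ± 0.05 in CD109+/+ skin, a log2 difference of -1.63 (SE 0.77, adjusted p = 0.237). Akr1c13 differed by -1.40 (SE 0.72, adjusted p = 0.263) and Akr1c14 by -1.45 (SE 1.30, adjusted p = 0.484). Akr1c18 had nearly the same mean in both genotypes, with a log2 difference of -0.04 and a standard error of 1.48, which leaves room for a large difference either way.

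The differences after DMBA stay the same when the untreated arrays are left out or exchanged, because only the shared estimate of the spread changes. With only the DMBA arrays fitted, the adjusted p in limma was 0.0837 for Akr1c19, 0.11 for Akr1c12 and 0.109 for Akr1c13. Without the 2 arrays in doubt the adjusted p was 0.0921 for Akr1c19 and 0.118 for Akr1c12 and Akr1c13 each. Exchanging them gave 0.0503 for Akr1c19, 0.0504 for Akr1c12, 0.0546 for Akr1c13, 0.121 for Akr1c14 and 0.967 for Akr1c18, so that 0 of 5 members passed, beside 19.9% of all probes. At an unadjusted p under 0.05 there were 3. Leaving out CD109-/- DMBA replicate 1 in this arrangement brought Akr1c12, Akr1c13 and Akr1c14 under the threshold, with log2 differences of -2.23, -1.89 and -2.30 at adjusted p of 0.0159, 0.0209 and 0.0218. Leaving out CD109-/- DMBA replicate 2 instead gave -1.04, -0.90 and -0.61 at adjusted p of 0.145, 0.178 and 0.406. In either case the 1 array left in the group is assumed to vary like the other groups.

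In untreated skin as labelled, 0 of 5 members differed between genotypes, at an adjusted p of 1 each and with 0 at an unadjusted p under 0.05, beside 0.00545% of all probes called. The arrays of either labelled group stood far apart for each member. The fitted log2 differences, CD109-/- over CD109+/+, were 0.54 for Akr1c12, 0.57 for Akr1c13, 0.74 for Akr1c14, 0.56 for Akr1c18 and 2.05 for Akr1c19, with standard errors of 0.72 to 1.62. All 5 turned negative with the 2 arrays in doubt left out, at -1.08, -0.97, -2.14, -2.74 and -1.51 in the same order, with 1 array per untreated group and adjusted p from 0.301 to 0.597.

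With the 2 arrays exchanged, 2 of the 5 members were called, both lower in CD109-/- untreated skin, beside 8.77% of all probes. These were 1447 lower and 1790 higher of 36909 probes. Akr1c18, which inactivates progesterone, had means of 2.26 ± 0.11 and 5.56 ± 0.90 (SD, n = 2 arrays each), a log2 difference of -3.30 (SE 0.61, adjusted p = 0.0336, lower in 4 of 4 array pairs). Akr1c14, which reduces dihydrotestosterone, had means of -1.02 ± 0.45 and 1.86 ± 0.59, a log2 difference of -2.88 (SE 0.59, adjusted p = 0.0426, lower in 4 of 4 array pairs). Akr1c12 differed by -1.62 (adjusted p = 0.0745), Akr1c13 by -1.54 (adjusted p = 0.0648) and Akr1c19 by -3.56 (adjusted p = 0.0956), the latter well above background on 1 of 2 CD109-/- arrays. Both calls were lost on leaving out any 1 array other than a CD109-/- DMBA array, at adjusted p of 0.0902 to 0.184 for Akr1c14 and 0.0596 to 0.137 for Akr1c18. On the same arrays the mean of the hair shaft keratins was 2.76 and 4.26 without Cd109 signal and -4.05 and -4.23 with it, and its part in these differences was not tested.

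The effect of DMBA was next compared within each genotype. All DMBA arrays lay in one row of the slide and all untreated arrays in the other, so that treatment and row cannot be told apart. In CD109+/+ skin as labelled, 0 of 5 members passed, with adjusted p from 0.586 to 0.837, beside 0.18% of all probes, and 0 were under an unadjusted p of 0.05. In CD109-/- skin as labelled, 0 of 5 passed, with adjusted p from 0.536 to 0.997, beside 0% of all probes, and again 0 were under an unadjusted p of 0.05. The 2 DMBA arrays of CD109+/+ skin differed from each other by at most 0.31 on the log2 scale for Akr1c12, Akr1c13, Akr1c14 and Akr1c18, and the 2 untreated arrays labelled CD109+/+ by at least 1.37.

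With the 2 arrays exchanged, 0 of 5 members passed in CD109+/+ skin, beside 3.43% of all probes, and 0 of 5 in CD109-/- skin, beside 0.0135%. On the deposited intensity Akr1c19 was at least 9.25-fold lower after DMBA in CD109+/+ skin, with a fitted log2 difference of -4.19 (SE 1.08, adjusted p = 0.0992, lower in 4 of 4 array pairs). With normexp the difference was -0.94 (adjusted p = 0.101), which is under that bound. In this arrangement its probe passed the filter only through CD109+/+ untreated and CD109-/- DMBA skin, where it was high. In CD109-/- skin, Akr1c14, Akr1c18 and Akr1c19 were each higher after DMBA in 4 of 4 array pairs. Their log2 differences were 1.82 (SE 0.59, adjusted p = 0.22), 2.36 (SE 0.61, adjusted p = 0.166) and 3.42 (SE 1.08, adjusted p = 0.214). Akr1c12 and Akr1c13 had log2 differences of 0.03 and 0.17 in CD109-/- skin and of 0.04 and 0.02 in CD109+/+ skin, with standard errors of 0.44 and 0.39. These comparisons share arrays with those of the genotypes and are no separate evidence.

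The DMBA effect differed between genotypes for 0 of 5 members as labelled, with adjusted p from 0.383 to 0.894, beside 0% of all probes and with 0 at an unadjusted p under 0.05. After the exchange it was again 0 of 5, beside 0.0271% of all probes, and 2 were under an unadjusted p of 0.05. These were Akr1c19, with a difference of 7.60 (SE 1.53, adjusted p = 0.107), and Akr1c18, with 3.26 (SE 0.86, adjusted p = 0.141), both on the log2 scale and more positive in CD109-/- skin. The value of Akr1c19 rests on arrays where its probe was not well above background and is no measured fold, and with normexp it was 2.01 (adjusted p = 0.0494).

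**Figure D4:**
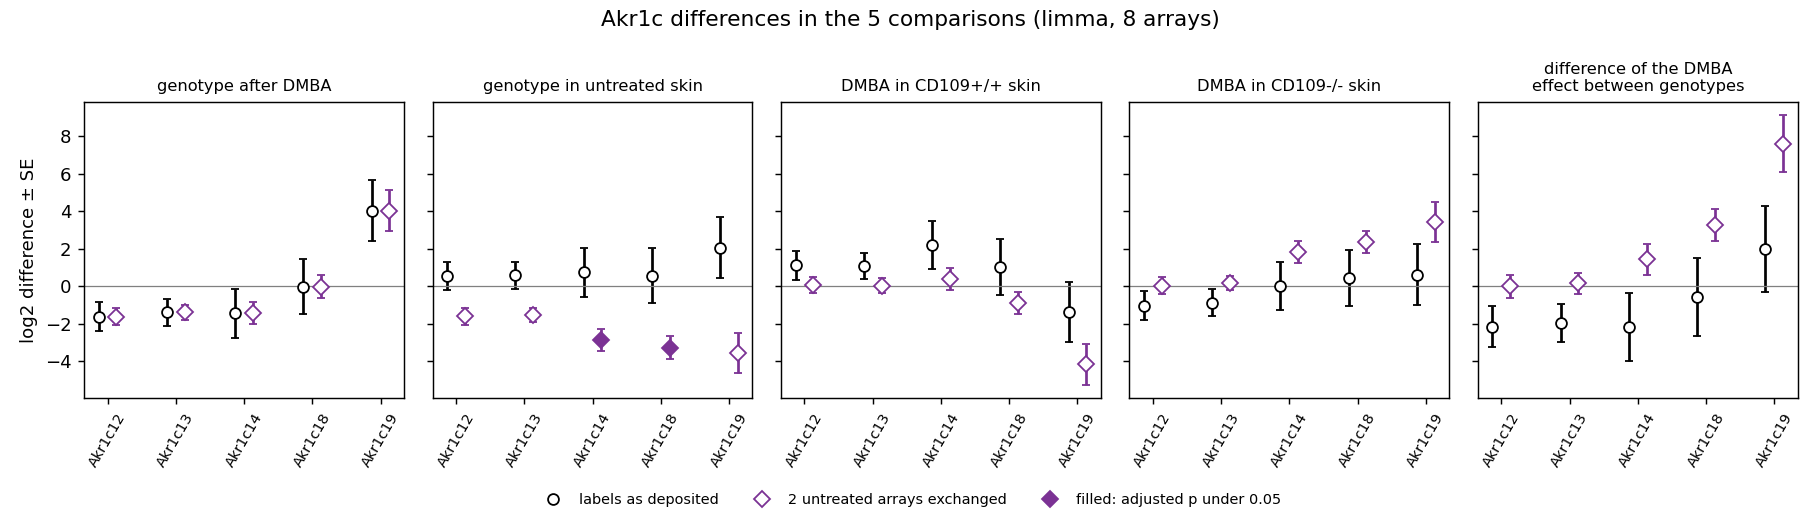
Fitted log2 difference with its standard error for the 5 tested Akr1c genes in each of the 5 comparisons, with the labels as deposited (circles) and with the 2 untreated arrays exchanged (diamonds), filled where the adjusted p was under 0.05. Only Akr1c14 and Akr1c18 in untreated skin with the arrays exchanged are filled, at -2.88 and -3.30, and the comparisons that use untreated arrays move with the exchange.

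Other genes of the same pathways were read from fixed lists. As labelled, 0 members of any of the 6 lists passed in any of the 5 comparisons. For the genotypes after DMBA, 7 of 7 tested other aldo-keto reductases had a negative log2 difference, with a median of -0.85, beside a median of 0.06 over all probes. Of all tested probes, 46.2% were negative in this comparison. The 5 Akr1c genes had a median of -1.40, with 4 of 5 negative. Of 34 tested genes of the list of Nrf2 and its targets, 25 were negative with a median of -0.39, and of 9 genes of aromatic hydrocarbon activation 8 were negative with a median of -0.55. For steroid metabolism 10 of 21 were negative (median 0.09). For steroid and prostaglandin receptors it was 8 of 13 (median -0.26), and for prostaglandin synthesis and breakdown 13 of 15 (median -0.42). The Akr1c genes were left out of the Nrf2 list.

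After the exchange, 4 of 7 other aldo-keto reductases were called after DMBA, all lower in CD109-/- skin. Akr1b8 had a log2 difference of -1.77 (SE 0.19, adjusted p = 0.0135) and Akr1b10 of -1.17 (SE 0.21, adjusted p = 0.0276). Of the list of Nrf2 and its targets, 10 of 34 were called lower and 1 higher. Nfe2l2, which encodes Nrf2, was itself among the lower ones, at -0.84 (SE 0.13, adjusted p = 0.0232), with Nqo1, a quinone reductase, at -1.34 (SE 0.21, adjusted p = 0.0226). Some genes of this list had the opposite order on the DMBA arrays. Gclc was at 2.08 and 3.07 in CD109-/- and at 1.35 and 1.37 in CD109+/+ skin. Txnrd1 was at 3.08 and 3.57 against 2.57 and 2.83. Of the aromatic hydrocarbon list, 3 of 9 were called lower, among them Cyp1b1, a cytochrome P450 that oxidises DMBA, at -0.89 (SE 0.17, adjusted p = 0.0297). These shares stand beside the 19.9% of all probes called in this comparison in either direction, 3127 lower and 4208 higher of 36909.

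Steroid and prostaglandin genes were read as the substrates' side of the family. As labelled, 0 of 21 tested genes of steroid metabolism, 0 of 13 receptors and 0 of 15 genes of prostaglandin synthesis and breakdown passed in untreated skin. After the exchange, 0 of 21, 5 of 13 and 5 of 15 were called there, beside 8.77% of all probes, with 1 higher and 4 lower in CD109-/- skin in each of the latter lists. Pgr, the progesterone receptor, had log2 signals of -3.44 and -4.06 on the untreated arrays with Cd109 signal and was not well above background on those without, at -7.94 and -7.67, so that, like Akr1c18, it was lower on both untreated arrays without Cd109 signal. After DMBA it was at -2.05 and -1.83 in CD109+/+ and at -1.03 and -2.58 in CD109-/- skin, which overlap as those of Akr1c18 do. With the arrays exchanged it was at least 3.98-fold lower in CD109-/- untreated skin (adjusted p = 0.0132 in limma), the CD109-/- arrays giving only a bound. Akr1cl, a gene related to the cluster that lies on another chromosome, was also called there, at a fitted log2 difference of -3.57 (SE 0.55, adjusted p = 0.0216), and was well above background on 1 of 2 CD109-/- arrays.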

How the data were processed

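Labelled RNA was hybridized to 1-colour Agilent mouse arrays and read by the authors with Agilent Feature Extraction 11.5.1.1; the design header names mm9. The deposited values are an intensity per spot, background-subtracted and detrended, not normalized between arrays. In the value table each array's intensities are multiplied by 1 constant of unknown origin. All arrays lay on 1 slide scanned once.

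Control spots were dropped and spots of a probe averaged (55681 probes); 523 with an outlier flag on any array were left out. Tested probes (36684) had, in 1 group or more, both arrays well above background. Names came from RefSeq accessions (28026 of 29796 probes matched). limma 3.58.1 in R 4.3.3 was fitted with group means (8 arrays, moderated variance, Benjamini-Hochberg over all tested probes, threshold 0.05). The test was checked on simulated data with independent probes of 1 common spread, which lack the tissue differences between these arrays. Where 1 group was not well above background, the fold was taken to the lowest signal above it and is a lower bound. Lists used each gene's brightest tested probe. The text names all members, Cd109, Nfe2l2, up to 4 called genes per list and comparison, the 3 genes most like each member, the neighbours and 4 keratins. Motif CATTAG and the array values of Pgr, Gclc and Txnrd1 were chosen after their values were seen. The members and lists were chosen with earlier results of these data known. The alternatives were the 2 arrays in doubt, normalization, background, filter, arrays fitted, variance, replicate block, the methods' tests, the value table, a mean over probes and leaving out each array.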

Additional observations from a re-analysis of the deposited data

Results flagged for a closer look

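With the 2 untreated arrays exchanged, Akr1c18 was lower after DMBA in all array pairs of CD109+/+ skin (log2 difference -0.90) and higher in all pairs of CD109-/- skin (2.36). The difference between these effects was 3.26, with an adjusted p of 0.141 in limma. In the same arrangement Akr1c19 was lower after DMBA in all pairs of CD109+/+ skin (-4.19) and higher in all pairs of CD109-/- skin (3.42). Equally, it was higher in CD109-/- than CD109+/+ skin after DMBA (4.04) and lower in untreated skin (-3.56). The difference of these effects was 7.60 in both readings, with an adjusted p of 0.107. The Akr1c19 values rest on arrays where its probe was not well above background and are no measured folds. With normexp background correction they were -0.94, 1.07, 1.01 and -0.996 in the same order, with a difference of 2.01 (adjusted p = 0.0494). With the labels as deposited, 0 members showed opposite directions in all array pairs.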

How the results depend on the processing

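As labelled, the count of members called was 0 in all 5 comparisons under every alternative run, leaving out each array and the replicate block included, except that it was 2 in untreated skin with the 2 arrays exchanged. The replicate block gave 0 calls in each comparison. Deviations from the group means of same-numbered arrays correlated at -0.08, 0.03, 0.12, 0.49, 0.54 and 0.73 in the 6 pairs of groups. The 0.73 was between the 2 untreated groups, where replicate 1 had Cd109 signal and replicate 2 had none under both labels. The labels do not say that a number marks a shared mouse or batch, so the block is given only as an alternative. In untreated skin, all log2 differences turned negative without the 2 arrays in doubt (-1.08, -0.97, -2.14, -2.74 and -1.51 for Akr1c12, Akr1c13, Akr1c14, Akr1c18 and Akr1c19) and with them exchanged (-1.62, -1.54, -2.88, -3.30 and -3.56). Leaving out each array gave -0.40 to 1.47, -0.27 to 1.41, -0.75 to 2.23 and -1.45 to 2.56 for the first 4, negative without either array in doubt, and 0.03 to 4.08 for Akr1c19. A filter on all 8 arrays left Akr1c19 out, with 4 members tested. After DMBA, Akr1c18 turned to 0.12 with quantile normalization and ranged from -0.82 to 0.75 on leaving out each array, in both arrangements.

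With the 2 arrays exchanged (alternatives added after the data were seen), the count after DMBA rose from 0 to 2 with median centring, to 3 with normexp, to 2 with a filter on all arrays and to 3 with a trended robust variance, and ranged from 0 to 3 on leaving out each array. In untreated skin the count of 2 became 4 with normexp, 3 with a filter on all arrays, 0 with no filter on dim probes, 4 with a trended robust variance and 0 with the methods' t-test adjusted, and ranged from 0 to 4 on leaving out each array. With normexp, 1 member passed for DMBA in CD109-/- skin and 1 for the difference of the DMBA effect, where the two-way test without adjustment called 2. The cause was not tested. A fit with the block was not made for the exchanged arrays. With 2 arrays per group, and Akr1c19 near background, a missed call does not show that the groups were alike.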

Other observations

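Among the prostaglandin genes, Ptgds, which makes prostaglandin D from its precursor, ran opposite to Akr1c12 and Akr1c13 over the arrays. Its log2 signal was 2.55 to 3.78 on the 4 arrays without Cd109 signal and -1.39 to 0.48 on the 4 with it. Over all tested probes, 12.8% were higher without overlap on the arrays without Cd109 signal. Ptgs1, the constitutive cyclooxygenase, had the reverse order, at 2.44 to 2.90 against 3.49 to 4.35. Both genes were chosen after their values were seen.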
